A study of Anopheles gambiae with 16 samples.

Results

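Heads were set against carcasses of young female Anopheles gambiae, a mosquito that carries malaria. The 8 arrays were taken by their sample titles from the 16 of the series, 4 of heads and 4 of carcasses, both amplified in 2 rounds, with 80 ng of total RNA put in. All females were naive, of the G3 laboratory strain and 1 to 2 days past eclosion, with no further treatment or genotype named. Per the labels a head array is a pool of 40 females and a carcass array a pool of 20, and the carcass is what remained after hemolymph was drawn and the head cut off. Both tissues were extracted with Trizol and cleaned on a column, and each array is labelled as a separate biological replicate. The other 8 arrays hold carcasses labelled after 1 round from 1000 ng and circulating hemocytes, the blood cells. They serve here for levels and, in the model behind the calls, for the shared estimate of the spread.

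The mosquito head carries the brain, the compound eyes, the antennae and palps with their smell neurons, and the proboscis. The carcass holds the flight muscle, salivary glands, gut, Malpighian tubules, fat body and ovaries, together with blood cells that stayed in the body. In such bulk samples fewer cells of a type and less RNA per cell cannot be told apart. The array names its probe sets, groups of short probes that together report on 1 transcript or a few, by design IDs only. Of the 16884 IDs that begin with Ag., 0 matched the RefSeq gene table used here, so no gene is named for a probe set, no list of tissue markers could be checked against the labels, and no sequence is printed. An ID such as Ag.3R.219.0_CDS_at holds a chromosome arm, a cluster number, a member number, a mark (CDS for coding, UTR for untranslated, or none) and a suffix, a reading that no source used here records.

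Levels are deposited intensities on a linear scale. Between 10235 and 10954 Ag. probe sets per array lay above background, taken as the 95th percentile of the probe sets with Pf. IDs, read here as those of the malaria parasite, which was 12.72 to 15.28 intensity units on these 8 arrays. The median Ag. intensity was 22.32 to 27. Across Ag. probe sets on the log2 scale, head arrays correlated at 0.93 to 0.974 with each other, carcass arrays at 0.953 to 0.973, and heads with carcasses at 0.854 to 0.889. These correlations describe probe sets, which are not independent replicates.

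For head replicate 4 the labels conflict: its source name gives carcasses of 20 females, while title, description and tissue entry give heads. It was kept as a head. Of the 1607 probe sets called between tissues without it, 94.8% lay on the head side on that array, the side of the midpoint between the tissue means of the other arrays, against 96% and 94.7% for head replicates 2 and 3 when each was left out in the same way. The array that stood apart was head replicate 1, with 84.3% of 1699, and it correlated at 0.93 to 0.945 with the other heads, which reached 0.97 to 0.974 among themselves. Carcass arrays left out in turn lay on the carcass side for 89.4% to 96.2% of calls, lowest for carcass replicate 3. Of all probe sets, called or not, 60.1% to 65.6% lay on the labelled side of the array left out.

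Heads and carcasses shared many of their detected and brightest probe sets. Above background on all 8 arrays were 7202 of the 16884 probe sets (42.7%), and below it on all 8 were 2607 (15.4%). Of the 100 brightest probe sets in heads, 57 were also among the 100 brightest in carcasses. Heads had 10790 ± 202 probe sets above background and carcasses 10460 ± 150 (SD, n = 4), and the arrays overlapped (exact two-sided permutation test, p = 0.057, adjusted p = 0.14 over 15 values tested per array). The 100 brightest probe sets held 23.43% ± 0.806 of the summed intensity in heads and 23.2% ± 0.342 in carcasses (exact permutation p = 0.57, adjusted p = 0.66). At 4 arrays against 4 no exact p below 0.029 is possible, and none of the 15 values passed after adjustment.

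A probe set was called when limma's adjusted p was under 0.05 and the change was at least 2-fold on the scale of log2(intensity + 16), which understates the change of dim probe sets. Higher in heads were 848 (5.02% of those tested) and lower were 788 (4.67%), and the arrays of the tissues did not overlap for 812 and 716 of them, against 21.7% of all probe sets. By adjusted p alone 1923 were higher (11.4%) and 1323 lower (7.84%), 3246 in all (19.2%). The p-values measure the spread between arrays of the same group, estimated jointly over the 4 groups of the series. Carcass arrays outside the 8 may come from the same pools as those among the 8, which was not tested. The joint estimate treats them as separate pools, so its p-values may be too small. With only the 8 arrays fitted, 835 were called higher and 752 lower. Called higher probe sets had a median intensity of 217 in heads and 55.2 in carcasses, and called lower ones had 25.6 in heads and 283 in carcasses.

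The directions differed in size of change. Higher calls lay mostly between 2-fold and 4-fold (647 of 848), 171 were from 4-fold to under 8-fold, 29 from 8-fold to under 16-fold, and 1 reached 16-fold. Lower calls numbered 446, 143, 76 and 123 in the same steps. Changes of at least 16-fold thus ran almost wholly downward in heads. Above background on all 8 arrays were 619 of the higher calls (73%) and 386 of the lower calls (49%), beside 42.7% of all probe sets. Of the lower calls 160 were below background on all 4 head arrays (20.3%, beside 21.9% of all probe sets), and of the higher calls 68 were below it on all 4 carcass arrays (8.02%, beside 23.5%).

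**Figure D1:**
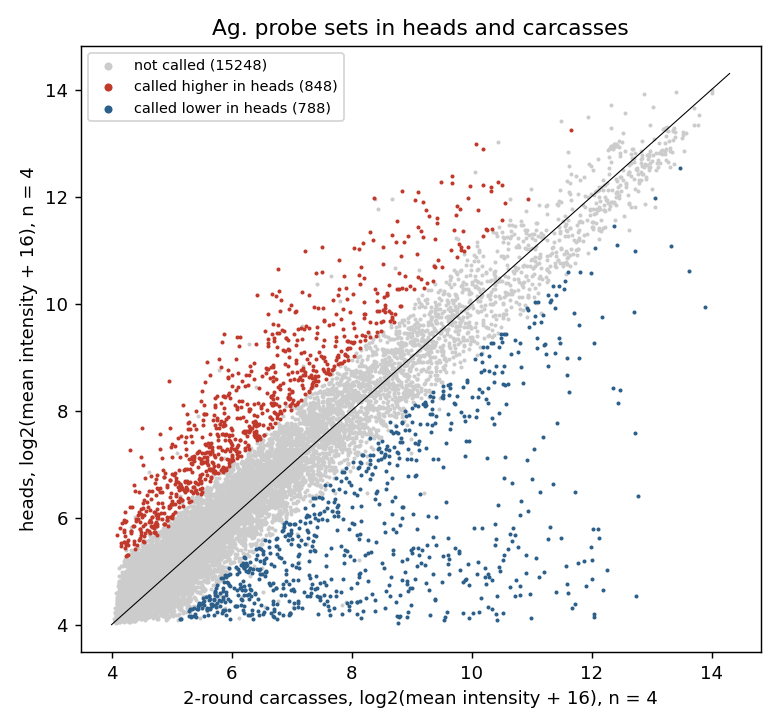
Each point is an Ag. probe set, with log2(mean intensity + 16) over 4 carcass arrays after 2 rounds on the x axis and over 4 head arrays on the y axis, and the line marks equal levels. The 788 called lower in heads reach down to the floor of the plot from high carcass levels, while the 848 called higher keep closer to the line.

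The 788 lower calls held 14.1% to 17% of the summed Ag. intensity on carcass arrays and 2.7% to 3.57% on head arrays. The 848 higher calls held 11.7% to 13.7% on head arrays and 2.94% to 3.16% on carcass arrays. The lists were chosen on these arrays, so the shares only describe them. Carcass arrays labelled after 1 round and hemocyte arrays entered the choice only through the shared estimate of the spread. On those carcass arrays the lower list held 15.6% to 18.6% and the higher list 2.33% to 2.64%. They may come from the same pools as the carcass arrays after 2 rounds, which was not tested, so they are no independent check. In hemocytes the lower list held 8.57% to 9.86%, between the carcass and head levels, and the higher list held 2.79% to 3.36%. Of the lower calls 167 (21.2%) and of the higher calls 87 (10.3%) were below background on all 4 hemocyte arrays, against 24.6% of all probe sets.

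Probe sets seen in 1 of the tissues only were few and differed in level. On all 4 carcass arrays and on no head array 163 were above background, with a median intensity of 76.2 and 70 of them over 100. On all 4 head arrays and on no carcass array were 106, with a median of 30.6 and 3 over 100. Of the 163, 141 were called lower in heads, and of the 106 only 59 were called higher. Of all 16884 probe sets 4.67% were called lower and 5.02% higher, and the rule itself favours called ones. Leaving out any 1 array raised both counts, since fewer arrays then had to meet the rule. The carcass count was then 184 to 220 and the head count 136 to 177, highest without carcass replicate 3 or 4 (162 and 177).

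By the size of limma's moderated t among called probe sets with no overlap, Ag.X.351.0_CDS_at and Ag.3L.2295.0_at led the higher calls, and Ag.3R.219.0_CDS_at and Ag.3R.163.0_CDS_s_at led the lower ones. This rule fixed their lack of overlap and favoured small p-values, so neither is a further result. Ag.X.351.0_CDS_at, on the X chromosome by its ID, measured 263.9, 334.7, 298.5 and 367.3 in head replicates 1 to 4 and 28.75, 32.54, 22.05 and 33.91 in carcass replicates 1 to 4. All head values lay far above all carcass values, and the means were 316.1 ± 44.7 and 29.31 ± 5.31 (SD, n = 4), a log2 difference of 2.87 with an SE of 0.14 (limma adjusted p = 4.3e-10). It was at 23.56 ± 6.14 in carcasses after 1 round, and in hemocytes it was below background on all 4 arrays.

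Ag.3L.2295.0_at, on arm 3L with no mark, measured 898.5, 1320, 1399 and 946.8 in heads and 49.73, 103.9, 86.21 and 106.6 in carcasses. The lowest head array was again well above the highest carcass array, and the log2 difference was 3.51 with an SE of 0.21 (limma adjusted p = 4e-09). Carcasses after 1 round gave 59.1 ± 10.6 and hemocytes 17.77 ± 4.32 (SD, n = 4), so that it was above background in every group and brightest in heads. In hemocytes it lay near background, with 13.88 and 14.19 on replicates 1 and 2 against backgrounds of 13.35 and 12.54.

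Ag.3R.219.0_CDS_at, on arm 3R, measured 3804, 5476, 3045 and 4461 in carcasses and 6.917, 1.241, 0.5762 and 0.9812 in heads. No head array reached background, so the fold is a bound: the geometric mean in carcasses over that of background in heads was at least 305-fold (limma adjusted p = 3.4e-14). Carcasses after 1 round measured 5727 ± 326, and hemocytes were below background on all 4 arrays. Ag.3R.163.0_CDS_s_at measured 3709, 2937, 2505 and 3843 in carcasses and 2.703, 6.115, 0.9898 and 5.899 in heads, all below background there and at least 238-fold lower (limma adjusted p = 3.7e-14). Its suffix s marks probes shared by several transcripts in the array maker's naming, so the transcript behind it is uncertain. It too was bright in carcasses after 1 round (1921 ± 248) and below background on all hemocyte arrays.

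**Figure D2:**
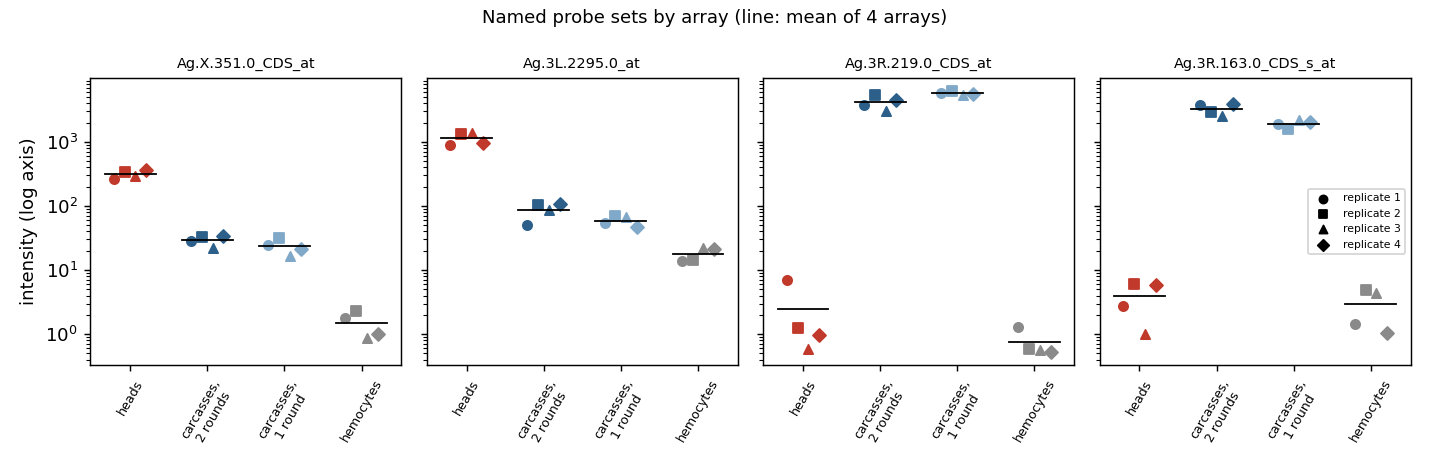
Intensity on a log axis for the 4 named probe sets, 1 point per array with the marker giving the replicate number and a line at the mean of each group of 4. Heads lie above the other groups in the first and second panels, and carcasses of both labellings lie above heads and hemocytes in the other panels.

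Replicate heads were not alike at every probe set, and the difference lay in replicate 1. At 50 probe sets head replicate 1 was at least 8-fold below each of the other 3 heads on the log2(intensity + 16) scale, and at 11 it was at least 8-fold above each. The same counts were 0 below and 0 above for head replicates 2 and 3, 0 and 4 for head replicate 4, and at most 8 and 4 for any carcass array. Probe sets with an SD over 1 on the log2 scale numbered 228 across the 4 heads and 127 across the 4 carcasses. With 1 array left out they were 43 without head replicate 1 and 265 to 320 without another head, and 63 without carcass replicate 3 and 131 to 187 without another carcass.

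The 2 probe sets with the widest gap, chosen after their values were seen, were Ag.3R.755.0_CDS_at and Ag.2L.619.0_CDS_at. Ag.3R.755.0_CDS_at measured 10670, 10510 and 11800 in head replicates 2 to 4 and 10.5 in head replicate 1. Its carcass values were 259.7, 416.7, 3177 and 1611 after 2 rounds and 255.9, 348.4, 4162 and 1328 after 1 round, so that carcass replicate 3 was highest and replicate 1 lowest under both labellings. Hemocytes were below background on all 4 arrays. With all heads the tissues differed by 1.46 on the log2 scale, SE 1.55 (limma adjusted p = 0.61), and by 3.63 without head replicate 1, a rise that the choice of the probe set fixes. Ag.2L.619.0_CDS_at measured 6.77 in head replicate 1 and 6985 to 7826 in the other heads, against 622.4 to 1696 in carcasses, with replicate 3 again the highest. Its difference was 0.85 with an SE of 1.36 with all heads (limma adjusted p = 0.75) and 2.94 without head replicate 1, with the same reservation.

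The 50 probe sets had median intensities of 35.5 in head replicate 1 and of 1980, 1700 and 2610 in head replicates 2, 3 and 4. On carcass arrays after 2 rounds their medians were 412, 455, 852 and 722, and on hemocyte arrays they were 30.5 to 56.2. Head replicate 1 thus sat near the hemocyte level, although 33 of the 50 were still above background on it. Carcass replicate 3 had the highest value of its group at 40 of the 50, where it had it at 21.9% of all probe sets. Among carcasses after 1 round replicate 3 was highest at 45, against 54.1% of all probe sets. At 27 of the 50 (54%), each of head replicates 2 to 4 lay above all 4 carcasses, against 16.4% of all probe sets, and the choice of the 50 favoured high values on those heads. Of the 50, 5 were called with all arrays (4 higher and 1 lower in heads), beside 9.69% of all probe sets. By mark 42 were CDS, 5 UTR and 3 unmarked, beside 14060, 790 and 2034 of all 16884 probe sets. The 11 probe sets that were high in head replicate 1 had a median of 794 on it, 31 to 50.9 on the other heads, 38.3 to 1060 on carcasses after 2 rounds, lowest on carcass replicate 3, and 935 to 1860 on hemocytes. The labels describe the 4 head pools alike apart from the source name of replicate 4.

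**Figure D3:**
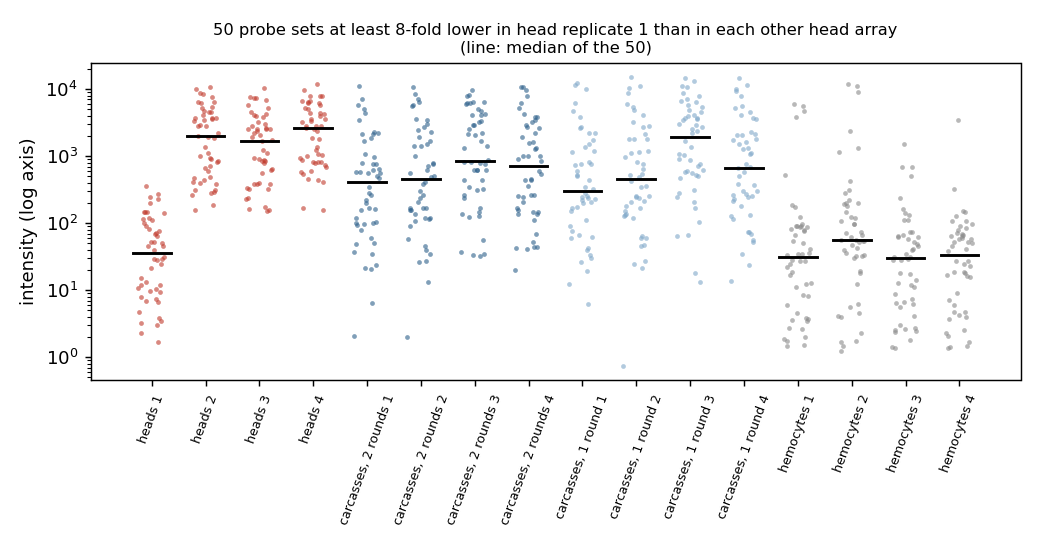
Intensity on a log axis of the 50 probe sets that were at least 8-fold lower in head replicate 1 than in each other head, for each of the 16 arrays, with a line at the median of the 50. Their choice fixed the gap among heads, but not the rise from carcass replicates 1 and 2 (medians 412 and 455) to replicates 3 and 4 (852 and 722) or the low hemocyte medians.

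The cluster number within the ID went with the direction of the difference. Among the 368 probe sets numbered 1 to 50 on their arm, 79 were called lower in heads (21.5%) and 22 higher (5.98%). For numbers 51 to 400 the lower calls were 10.2% of 2508, for the next range, up to 1600, they were 4.19% of 7516, and above 1600 they were 2.13% of 6492, beside 4.67% of all probe sets. Higher calls stayed between 4.47% and 5.98% in these ranges. The median log2 difference was -0.165 for numbers 1 to 50 and 0.077 for numbers over 1600. Of the 123 lower calls of at least 16-fold, 37 had a number from 1 to 50.

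Low numbers had the higher share of lower calls on each arm. Numbers 1 to 50 were called lower at 30.3% on 2L, 10.2% on 2R, 20.4% on 3L, 32.3% on 3R, 24.6% on X and 8.82% among IDs with no arm, against 1.61% to 2.79% for numbers over 1600. Over the 4 ranges the share fell at every step on 2L, 2R, 3L and 3R, while on X and among IDs with no arm it was lowest in the range up to 1600 (1.66% and 0.577%), X having 38 probe sets over 1600. Low-numbered probe sets were also brighter, with a median of 7.62 over the 8 arrays on the log2 scale against 4.9 for numbers over 1600. Within a band of like brightness, a mean from 7 to under 9, lower calls were 38.2% of 102 for numbers 1 to 50, 16.6% of 597, 9.15% of 1137 and 5.56% of 540 for numbers over 1600. In that band higher calls were 23% for numbers over 1600 and 9.05% to 11.8% for the other ranges. Among CDS probe sets alone lower calls went from 24.2% of 297 to 1.71% of 5099. No source used here states how the numbers were given, and these shares are counts with no test.

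**Figure D4:**
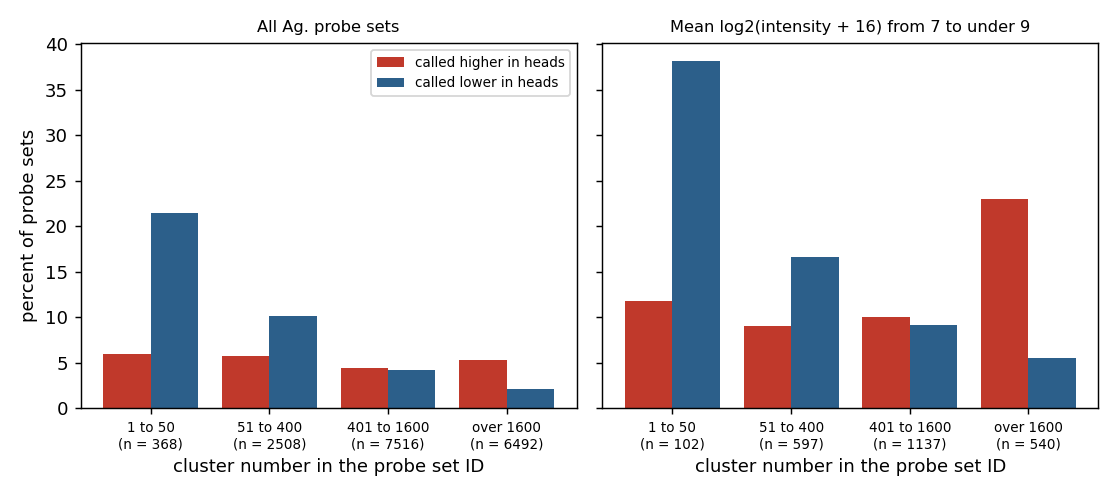
Percent of probe sets called higher and lower in heads by the cluster number in the ID, for all Ag. probe sets on the left and for those with a mean log2(intensity + 16) from 7 to under 9 on the right. Lower calls fall from 21.5% to 2.13% on the left and from 38.2% to 5.56% on the right as the number grows.

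Chromosome arms had like shares of calls. Higher calls were 4.96% to 5.66% and lower calls 4.06% to 5.33% on 2L, 2R, 3L, 3R and X, which is near the 5.02% and 4.67% of all probe sets, and IDs with no arm had 2.43% and 1.55% at a lower median brightness of 4.66. The median of each arm relative to all probe sets on the same array differed between heads and carcasses by 0.0237 or less on the log2 scale (for 2L by -0.0467 with a filter on low values), with no test passed (exact permutation p from 0.057 to 0.71, adjusted p from 0.14 to 0.74). For the X chromosome, which females carry in a pair like the autosomes, this median was -0.02715 ± 0.0361 in heads and -0.01095 ± 0.0267 in carcasses (SD, n = 4).

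Unmarked probe sets with high cluster numbers were more often called higher than lower. Over all unmarked probe sets, called higher were 229 of 2034 (11.3%), against 3.9% of 14060 CDS and 8.86% of 790 UTR probe sets and 5.02% of all, while lower calls were 4.67%, 4.59% and 5.95%. In the brightness band from 7 to under 9 the higher calls were 23.8% of 449 unmarked, 9.92% of 1694 CDS and 12.4% of 233 UTR probe sets, and from 5 to under 7 they were 8.95% of 827, 6.07% of 5269 and 5.51% of 236. The median of unmarked probe sets relative to all on the same array was 0.856, 0.947, 0.816 and 0.841 in head replicates 1 to 4 and 0.678, 0.743, 0.747 and 0.75 in the carcasses. Every head lay above every carcass, with a difference of 0.135 that did not pass after adjustment (exact permutation p = 0.029, the smallest possible, adjusted p = 0.14). For CDS the difference was 0.00201 (exact permutation p = 0.74) and for UTR 0.0568 (exact permutation p = 0.54), both with adjusted p of 0.74 and 0.66. Unmarked probe sets and high numbers overlap: 1370 of the 2034 have a number over 1600, with 13.6% called higher and 3.72% lower. Unmarked probe sets numbered 1 to 50 had 4.76% higher and 19% lower, those numbered 51 to 400 had 4.26% and 9.22%, and the next range, up to 1600, had 6.97% and 5.38%.

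A ratio along a control transcript, which RNA integrity and labelling both affect, differed between the tissues beside these classes. Gapdh, a glycolytic enzyme with control probe sets along its transcript, had a log2 ratio of 3' over middle intensity of 1.43, 2.13, 1.99 and 2.5 in heads and 0.389, 0.435, 0.647 and 0.409 in carcasses. The tissues did not overlap, and the difference of 1.54 did not pass over the 15 values (exact permutation p = 0.029, adjusted p = 0.14). The same ratio for actin, a cytoskeletal protein, was 1.825 ± 0.17 in heads and 1.745 ± 0.0597 in carcasses, which overlapped (SD, n = 4; exact permutation p = 0.46, adjusted p = 0.62). The log2 ratio of 3' over 5' intensity overlapped for both controls, at 6.092 ± 0.636 in heads and 4.982 ± 0.262 in carcasses for Gapdh (exact permutation p = 0.057, adjusted p = 0.14) and at 4.355 ± 0.239 and 4.659 ± 0.186 for actin, lower in heads (exact permutation p = 0.11, adjusted p = 0.24). The bacterial control transcripts on the array did not run one way: the linear 3' over middle ratio was 4.03 ± 0.125 in heads and 3.25 ± 0.507 in carcasses for dap, and 1.81 ± 0.337 and 2.78 ± 0.225 for thr, while for lys it was 3.11 ± 1.2 and 2.82 ± 0.593 and for phe 3.12 ± 0.598 and 3.12 ± 0.623 (SD, n = 4). The part of RNA integrity or labelling in the calls was not tested.

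**Figure D5:**
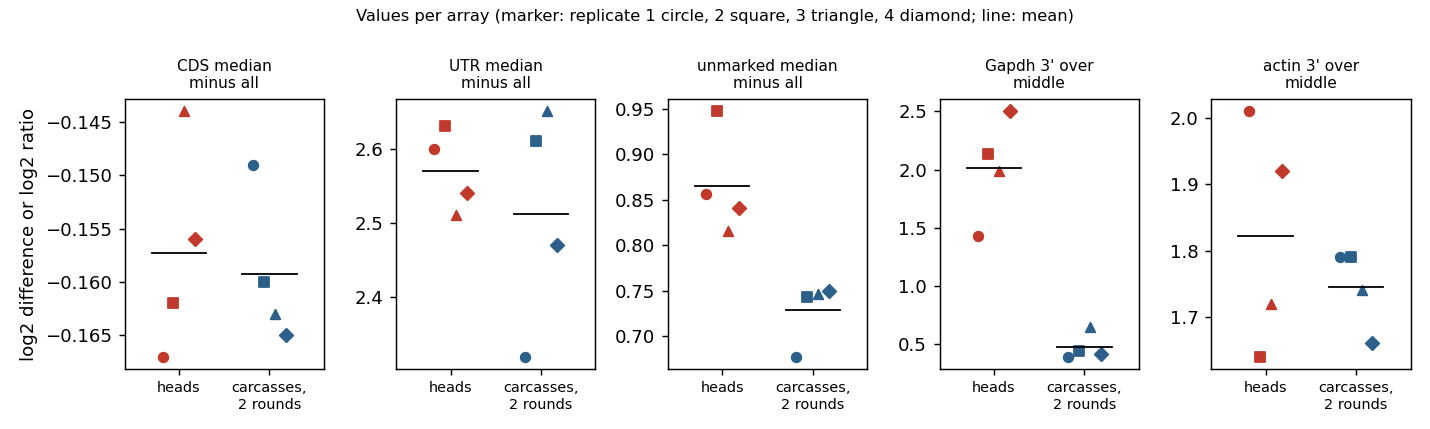
Values per array for heads and for carcasses after 2 rounds, with the marker giving the replicate and a line at the mean: the median log2(intensity + 16) of CDS, UTR and unmarked probe sets minus that of all Ag. probe sets, and the log2 ratio of 3' over middle intensity for Gapdh and actin. Each panel has its own y axis, which does not start at 0. Heads and carcasses separate for unmarked probe sets (a difference of 0.135) and for Gapdh (1.54) and overlap in the other panels.

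Called probe sets of 1 cluster did not oppose each other, though many clusters were called at 1 member only. Of 1657 clusters with at least 2 probe sets, 315 had a call, 202 of them at 1 member and 113 at 2 or more, and 96 had every member called in the same direction. Of the 113, 46 were higher and 67 lower in heads at every called member, and 0 held calls of both directions. Members of a cluster may share probes or transcripts, so they are not independent. At 608 pairs of a CDS and a UTR probe set with the same cluster and member number, suffixes s and x left out, 16 were called higher by both and 21 lower by both, and 0 were called in opposite directions. The UTR member alone was called higher at 32 and lower at 11, and the CDS member alone was called higher at 8 and lower at 28. At 492 pairs neither member was called. Over all UTR probe sets 8.86% were called higher and 5.95% lower, over all CDS probe sets 3.9% and 4.59%. Of all Ag. probe sets 9.69% were called. The pair and cluster counts were not tested against these shares.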

How the data were processed

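The deposited values are linear intensities, 1 for each probe set on each array, from GCOS 1.4 per the submitters' processing notes. How probes were summarised, background removed and arrays scaled is not given in the sources used here. All 22761 values per array were above 0, and no further scaling was applied. The Ag. probe sets were fitted as log2(intensity + 16) in 1 linear model over the 4 groups of 16 arrays (12 residual degrees of freedom) by limma 3.58.1 (lmFit and eBayes under R 4.3.3), with Benjamini-Hochberg adjustment over 16884 probe sets. The 12 degrees of freedom count all carcass arrays as separate pools, which was not tested. The code was tried on simulated data with independent normal noise and planted shifts in heads. Such data hold no array that stands apart as head replicate 1 does, so the trial does not vouch for the calls. Single values per array were compared with an exact two-sided permutation test and adjusted over 15 values. The named probe sets are the 2 per direction with the largest moderated t among called ones with no overlap; the rule for naming genes and the 22 gene lists could not be used, since 0 IDs matched the 15165 genes of RefSeq assembly idAnoGambNW_F1_1. The members, rules and lists were chosen with earlier results of these data known, and cluster numbers, the sets around head replicate 1 and the pairs were looked at after the values were seen. Alternatives were other pseudocounts, scalings, filters, arrays in the fit, a test against 2-fold, a replicate block and leaving out each array.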

Additional observations from a re-analysis of the deposited data

Results flagged for a closer look

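Head replicate 1 lay far from the other heads at 3 of the probe sets described, by a test of the gap to the nearest array over the range of the 4. The quotient was 0.981 for Ag.3R.755.0_CDS_at (10.5 intensity units) and 0.981 for Ag.2L.619.0_CDS_at (6.77), both chosen for that gap. For Ag.3R.219.0_CDS_at it was 0.879, where the array was at 6.917 but below background like the other heads. The median of unmarked probe sets was low on carcass replicate 1 among carcasses (0.678, quotient 0.896). Chance gives about 1 flag in 20 groups, with 42 groups looked at.

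Among the 4502 Pf. probe sets, which the comparison did not use, 1 was called higher in heads and 0 lower in a fit of their own. It measured 1433, 410.7, 333.6 and 361.5 in heads and 112.3, 120.4, 95.19 and 158.3 in carcasses (means 634.8 and 121.6, log2 difference 1.98 ± 0.31 SE, limma adjusted p = 0.021). It was 84.3 to 113.3 in hemocytes, and head replicate 1 was again the array apart. Of the 1231 row IDs that begin neither with Ag. or Pf. nor as array controls, 7 were called, 1 higher and 6 lower in heads.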

How the results depend on the processing

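The 848 higher and 788 lower calls (1636 in all) stayed within 1.5 times under other scalings, the low-value filter, the 8 arrays alone and a pseudocount of 1. With a pseudocount of 64 they were 466, 496 and 962, and with limma's treat against 2-fold 267, 318 and 585. Leaving out 1 array gave 1559 to 1699 calls, of which 1485 to 1543 were shared with the main calls in direction; without head replicate 4 there were 872 and 735. Median centring turned the balance to 780 higher and 866 lower. Head and carcass arrays share replicate numbers only: the correlations of their deviations were 0.16, -0.04, 0.08 and 0.03, and 2 of 4 numbers matched best with their own. With the number as a replicate block, among the 8 arrays, the calls were 822 and 754 (1576). The 4 probe sets named by rule were called in the same direction under each alternative run. Their limma adjusted p was larger with only the 8 arrays. It was 3.6e-06 for Ag.X.351.0_CDS_at, 1.6e-05 for Ag.3L.2295.0_at, 1.3e-07 for Ag.3R.219.0_CDS_at and 1.2e-07 for Ag.3R.163.0_CDS_s_at. With the replicate block among the 8 arrays the limma adjusted p was larger still, at 0.00017, 2e-04, 3.4e-05 and 3.2e-05 in the same order. None of the 15 differences per array passed after adjustment, and several changed sign: the share of the brightest probe sets was 0.222 percentage points higher in heads for 100 and -1.41 for 500, X went from -0.0162 to 0.0122 and CDS from 0.00201 to -0.00349 with the filter, IDs with no arm went from -0.0123 to 0.039 with the filter and 0.0134 with a pseudocount of 1, and CDS was at -0.000569 with a pseudocount of 64. The 2L difference went from -0.0237 to -0.0467 with the filter and -0.0393 with a pseudocount of 1. Leaving out 1 array gave -0.0305 to 0.601 for the share of 100, -0.00682 to 0.103 for UTR (0.0568 with all), -0.00261 to 0.00544 for CDS and -0.0304 to 0.000875 for IDs with no arm, below 0 without head replicate 4, carcass replicate 1 and head replicate 3 for the first 3 and above 0 without head replicate 4 for the last. With 3 arrays against 4 no exact p below 0.057 is possible, so those were compared as values. Dim probe sets limit the calls: under a mean of 5 on the log2 scale 0.33% were called higher and 0.531% lower.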
